A study of Mus musculus with 10 samples.

Results

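Single cells picked on day 12 from colonies that formed under the C6FAE cocktail, and carrying the higher running numbers of that group, were compared with single cells of the same day that were not picked from colonies. The colony cells were those with the prefix d12c and the numbers 49 to 96, and the unpicked cells those with the prefix d12. Of 48 such colony cells and 72 unpicked cells, 30 and 67 had at least 4000 detected genes and were kept, which made 97 of the 808 cells of the series. Both groups came from mouse embryonic fibroblasts (MEFs) of ICR embryos and had received the same agents until day 12, namely CHIR99021, a GSK3 inhibitor that activates Wnt signalling, Repsox, an inhibitor of the TGF-beta receptor ALK5, Forskolin, which raises cAMP, AM580, an agonist of retinoic acid receptors, and EPZ004777, an inhibitor of the histone methyltransferase Dot1L. Cells were taken by hand after digestion, and their RNA was counted in UMIs, molecular tags that let each RNA molecule be counted once. How many colonies or cultures the cells came from, and what the running numbers stand for, is not stated. The series lists 10 samples, and no cell could be assigned to any of them. The table was thus handled as 1 unreplicated sample, and the groups were compared without a test. Values are given as CPM, the UMIs of a gene scaled to the total of the cell without spike-in RNAs, and a difference is the mean of log2(CPM + 1) over colony cells minus that over unpicked cells, in log2 units. A gene is called higher or lower where that difference was over 2 in size and the mean reached 1 in either group.

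Extraembryonic endoderm (XEN) cells are the cultured counterpart of the primitive endoderm, the early embryonic layer that forms the yolk sac. They are built on the transcription factors *Sox17*, *Sox7*, *Gata4*, *Gata6* and *Foxa2*, and they make basement membrane and transport nutrients. MEFs are mesenchymal cells. They secrete fibrillar collagens, contract through actin and myosin, and are kept in this state by factors such as *Twist1*, *Twist2* and *Prrx1*. In chemical reprogramming, XEN-like colonies arise within a layer of treated fibroblasts, and unpicked cells of a dish can thus include both kinds.

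Colony cells were shallower than unpicked cells. The median depth was 276240 UMIs over the colony cells, from 37334 to 833951, and 768565 over the unpicked cells, from 49202 to 2102940. The median number of detected genes was 5450.5 in colony cells and 7938 in unpicked cells, and after thinning each cell to 50000 UMIs, which 26 colony and 66 unpicked cells allowed, it was 4330.5 and 4749.5. ERCC spike-in RNAs made up a median of 19.4% of the counts in colony cells and 11% in unpicked cells. The filter removed 18 colony cells, the richest of which had 3945 genes, and the poorest kept colony cell had 4050. It removed 5 unpicked cells, with at most 3937 genes, and the poorest kept one had 4681. Depth, spike-in share and colony origin thus moved together, and the part of depth in the differences was not tested beyond the thinned values given below. The 95% intervals below are exact Poisson intervals for pooled UMIs and exact Clopper-Pearson intervals for the share of cells with a UMI, and they cover counting error only. Where no cell of a group had a UMI, the share that 3 cells of the group would give is printed as the limit that a count of 0 allows.

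The labels were checked against 14 fibroblast and 14 XEN markers. The summed CPM of the fibroblast markers had a lowest value of 0, a median of 25.2 and a highest value of 2505 in colony cells, against 682, 10929 and 57121 in unpicked cells. The sum of the XEN markers was 308, 3610.3 and 7042 in colony cells and 59.8, 189.7 and 9860.1 in unpicked cells. Most cells carried the markers of their label, and 7 cells stood apart. The unpicked cells numbered 47, 50 and 23 had XEN sums of 9860, 9344 and 7016 CPM, above the first quartile of the colony cells (2754), with fibroblast sums of 682, 696 and 816. Unpicked cell 6 had 1715 and 763. Colony cells 67, 49 and 86 had fibroblast sums of 2505, 1160 and 487, with XEN sums of 308, 1407 and 316, while the next colony cell had a fibroblast sum of 87.8. Cell 67 had 48695 UMIs and cell 49 had 833951, the deepest of its group.

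Of 9648 genes whose mean reached 1 in either group, 541 (5.61%) were higher and 1369 (14.2%) lower in colony cells. Counts in the gene lists below stand beside these shares. Percentages of a list are over all its members, also those whose mean did not reach 1 and that could not be called. They thus run low beside the shares of the 9648 genes. The median difference over these genes was -0.34, with quartiles of -1.31 and 0.65. Of the genes over the mean of 1, 1982 reached it in unpicked cells alone and 892 in colony cells alone. After thinning, the median difference was -0.000478 over 8587 genes, and 745 genes were higher and 1030 lower, of which 504 and 978 were the same genes as with all UMIs. Taken relative to the median of -0.34, 784 genes were higher and 1049 lower. Without the 7 cells that stood apart, 682 were higher and 1500 lower. Genes with very large differences were mostly lower: 176 genes differed by over 5 downwards and 20 upwards. The 1369 lower genes held a median of 25.3% of the UMIs of an unpicked cell, from 6.95% to 36.6%, and 2.74% of those of a colony cell, from 1.95% to 18.3%. The 541 higher genes held 10.9% of the UMIs of a colony cell at the median and 1.10% of those of an unpicked cell. Among lower genes, 401 had a UMI in every unpicked cell and 141 had none in any colony cell. Among higher genes, 79 had a UMI in every colony cell and 4 had none in any unpicked cell. Of 157 genes past 2 that were chosen to be named, 73 fell short of it in at least 1 of 16 alternative settings with gene values, and for those described in the comparisons below the number of such settings is given where it was 3 or more.

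**Figure D1:**
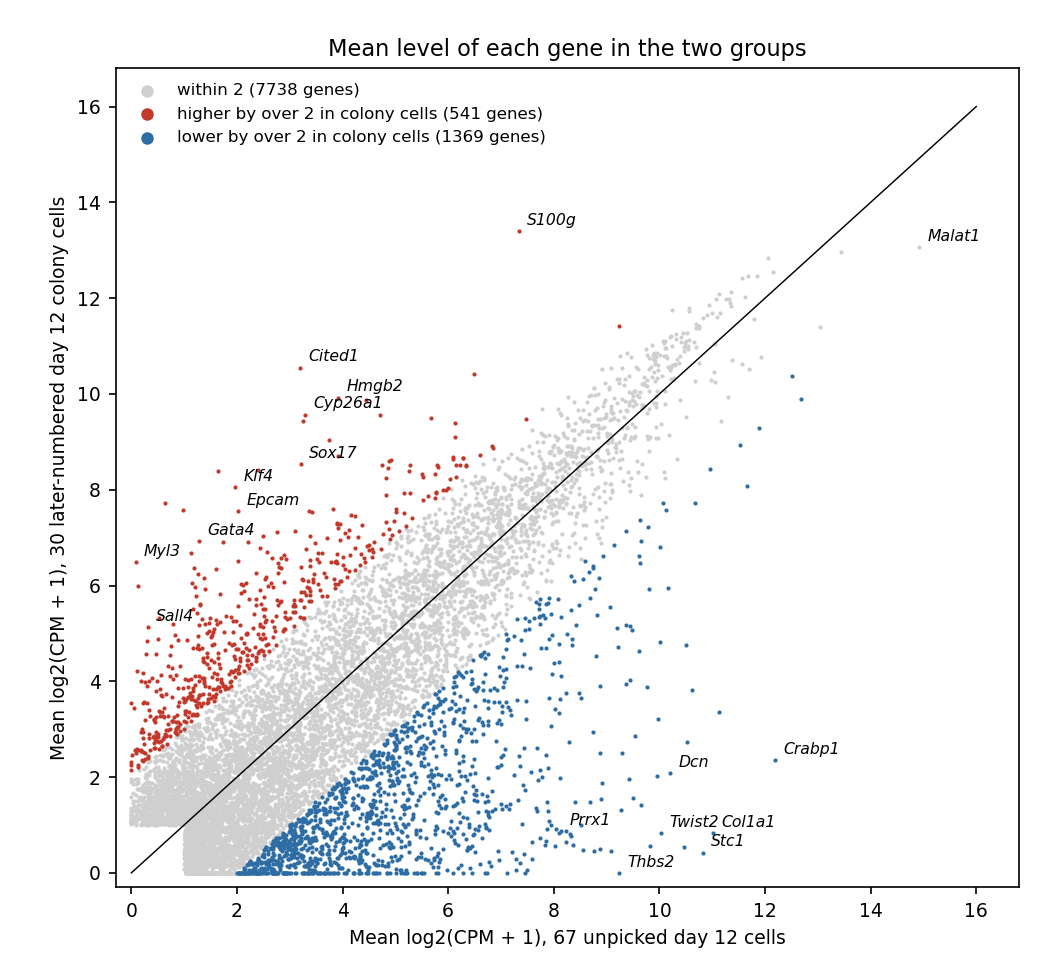
Mean log2(CPM + 1) of each of 9648 genes in 67 unpicked cells (horizontal axis) and 30 later-numbered colony cells (vertical axis), with 1 point per gene and the line of equal levels. The 541 red genes lie above the line by over 2 and the 1369 blue genes below it by over 2; *S100g* and *Cited1* stand farthest out among abundant higher genes, and *Col1a1*, *Stc1* and *Crabp1* among lower ones.

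*Sox17*, *Gata4* and *Sall4*, which are among the XEN master genes of the study, were higher in colony cells. *Sox17*, an endoderm transcription factor, had a lowest, median and highest level of 4.80, 600.5 and 1803 CPM in colony cells and 0, 5.65 and 1582 CPM in unpicked cells. All 30 colony cells and 63 of 67 unpicked cells had a *Sox17* UMI, but only 2 unpicked cells reached the colony median, and 1 of 72 untreated MEFs at day 0 had a UMI at all. Its difference was 5.32 (SD over cells 2.06 and 2.19), and its pooled level was 663 CPM (interval 646 to 681) against 79.1 (76.8 to 81.4). *Gata4*, a zinc finger factor of endoderm and heart, ran from 0 over 175 to 509 CPM in colony cells and from 0 over 0.868 to 425 CPM in unpicked cells, a difference of 5.65 (SD 1.95 and 1.89). *Sall4*, a factor of the early embryo, had a UMI in 24 of 30 colony cells, a share of 80.0% (61.4 to 92.3), and in 9 of 67 unpicked cells, 13.4% (6.33 to 24). Its level was 0, 70.6 and 517 CPM against 0, 0 and 95.0 CPM, and 14 colony cells lay above the highest unpicked cell. After thinning, 19 of 26 colony cells and 2 of 66 unpicked cells still had a *Sall4* UMI.

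*Sox7*, a relative of *Sox17*, was also higher, by 4.13 (SD 2.18 and 1.39), with 27 of 30 colony and 28 of 67 unpicked cells carrying a UMI. *Gata6* and *Foxa2* separated the groups less. *Gata6*, which directs the inner cell mass towards primitive endoderm, had 0, 38.0 and 322 CPM in colony cells and 0, 2.29 and 197 CPM in unpicked cells, a difference of 2.19 (SD 2.82 and 2.36) that ranged from 1.16 to 3.57 over the 16 alternative settings with gene values and was under 2 in 9 of them. *Foxa2*, a forkhead factor of endoderm, had a UMI in 19 of 30 colony cells and 21 of 67 unpicked cells. Its difference was 2.58, from 1.28 to 3.98 over the alternatives and under 2 in 4 of them. In the whole list of 18 XEN transcription factors, 13 were higher (72.2%, beside 5.61% of all genes) and 1 lower (5.56%, beside 14.2%). The median difference over the members was 3.58. The lower member was *Prdm1*, a repressor of transcription that acts in germ cell and lymphocyte development, at -2.20, which was between -2 and 0 in 6 alternatives. The summed level of the list was 765, 4507 and 8777 CPM in colony cells and 42.4, 278 and 5255 CPM in unpicked cells, and 1 unpicked cell exceeded the colony median.

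*Cited1*, a transcriptional coactivator without a DNA-binding domain, had the largest difference upwards of all genes, 7.36 (SD 1.75 and 1.97). Its level was 41.1, 2126 and 6747 CPM in colony cells and 0, 6.64 and 2197 CPM in unpicked cells, a ratio of mean CPM of 36.4. The gene lies at chrX:99442720-99447520 on the minus strand of mm9. Of the 30 colony cells, 14 lay above the highest unpicked cell, although a *Cited1* UMI was present in 64 of 67 unpicked cells. A pair of homeobox genes, named after their values were seen, were close to absent from unpicked cells. *Esx1*, a homeobox gene of extraembryonic tissue, had a UMI in 27 of 30 colony cells and 4 of 67 unpicked cells. *Gbx2*, a homeobox gene known from the hindbrain border and from early embryonic cells, had a UMI in 20 of 30 colony cells and in 0 of 67 unpicked cells, which allows a share of up to 4.48%. Its pooled level of 52.8 CPM (48 to 58) was at least 996-fold higher than the floor of 3 UMIs over all unpicked cells. *Esx1* and *Gbx2* were each past the limit of 2 in all but 1 of the alternatives.

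The other largest differences upwards belonged to genes of varied function. *S100g*, the vitamin D-dependent calcium-binding protein calbindin-D9k, reached 695, 17477 and 48034 CPM in colony cells. Unpicked cells had 68.3, 111 and 21370.0 CPM, so each of the 67 had *S100g* UMIs, whereas none of 72 day 0 cells had any. The difference was 6.07 (SD 1.93 and 1.81), and 2 unpicked cells reached the colony median. *Myl3*, a myosin light chain of slow muscle, had a UMI in 28 of 30 colony cells and 3 of 67 unpicked cells (difference 6.40, SD 2.64 and 0.54). *Tdh*, threonine dehydrogenase, an enzyme known from mouse embryonic stem cells, had one in 27 and 3 cells (5.87). *Atp1b1*, the beta subunit of the sodium pump, had 15.5, 287 and 647 CPM against 0, 0 and 231 CPM (7.09), and *Bex4*, a small protein of the brain expressed X-linked family, 0, 487 and 1119 against 0, 1.08 and 427 CPM (6.73). Without the 7 cells that stood apart, these were the only 2 genes for which every colony cell lay above every unpicked cell. Those cells were chosen by their marker sums, and leaving them out by itself lowers the overlap of the groups. *Ramp1*, a coreceptor for calcitonin gene-related peptide, differed by 6.60, *Chchd10*, a mitochondrial protein, by 6.18, *Cd24a*, a surface glycoprotein of immature and epithelial cells, by 6.02, and *Wfdc1*, a secreted protein, by 5.55. *Klf4*, a Krüppel-like factor of epithelia and one of the reprogramming factors, had 12.6, 318 and 1328 CPM in colony cells and 0, 0.936 and 247 CPM in unpicked cells (6.09), with 20 of 30 colony cells above every unpicked cell. All 15 largest differences upwards stayed past 2 in every alternative.

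**Figure D2:**
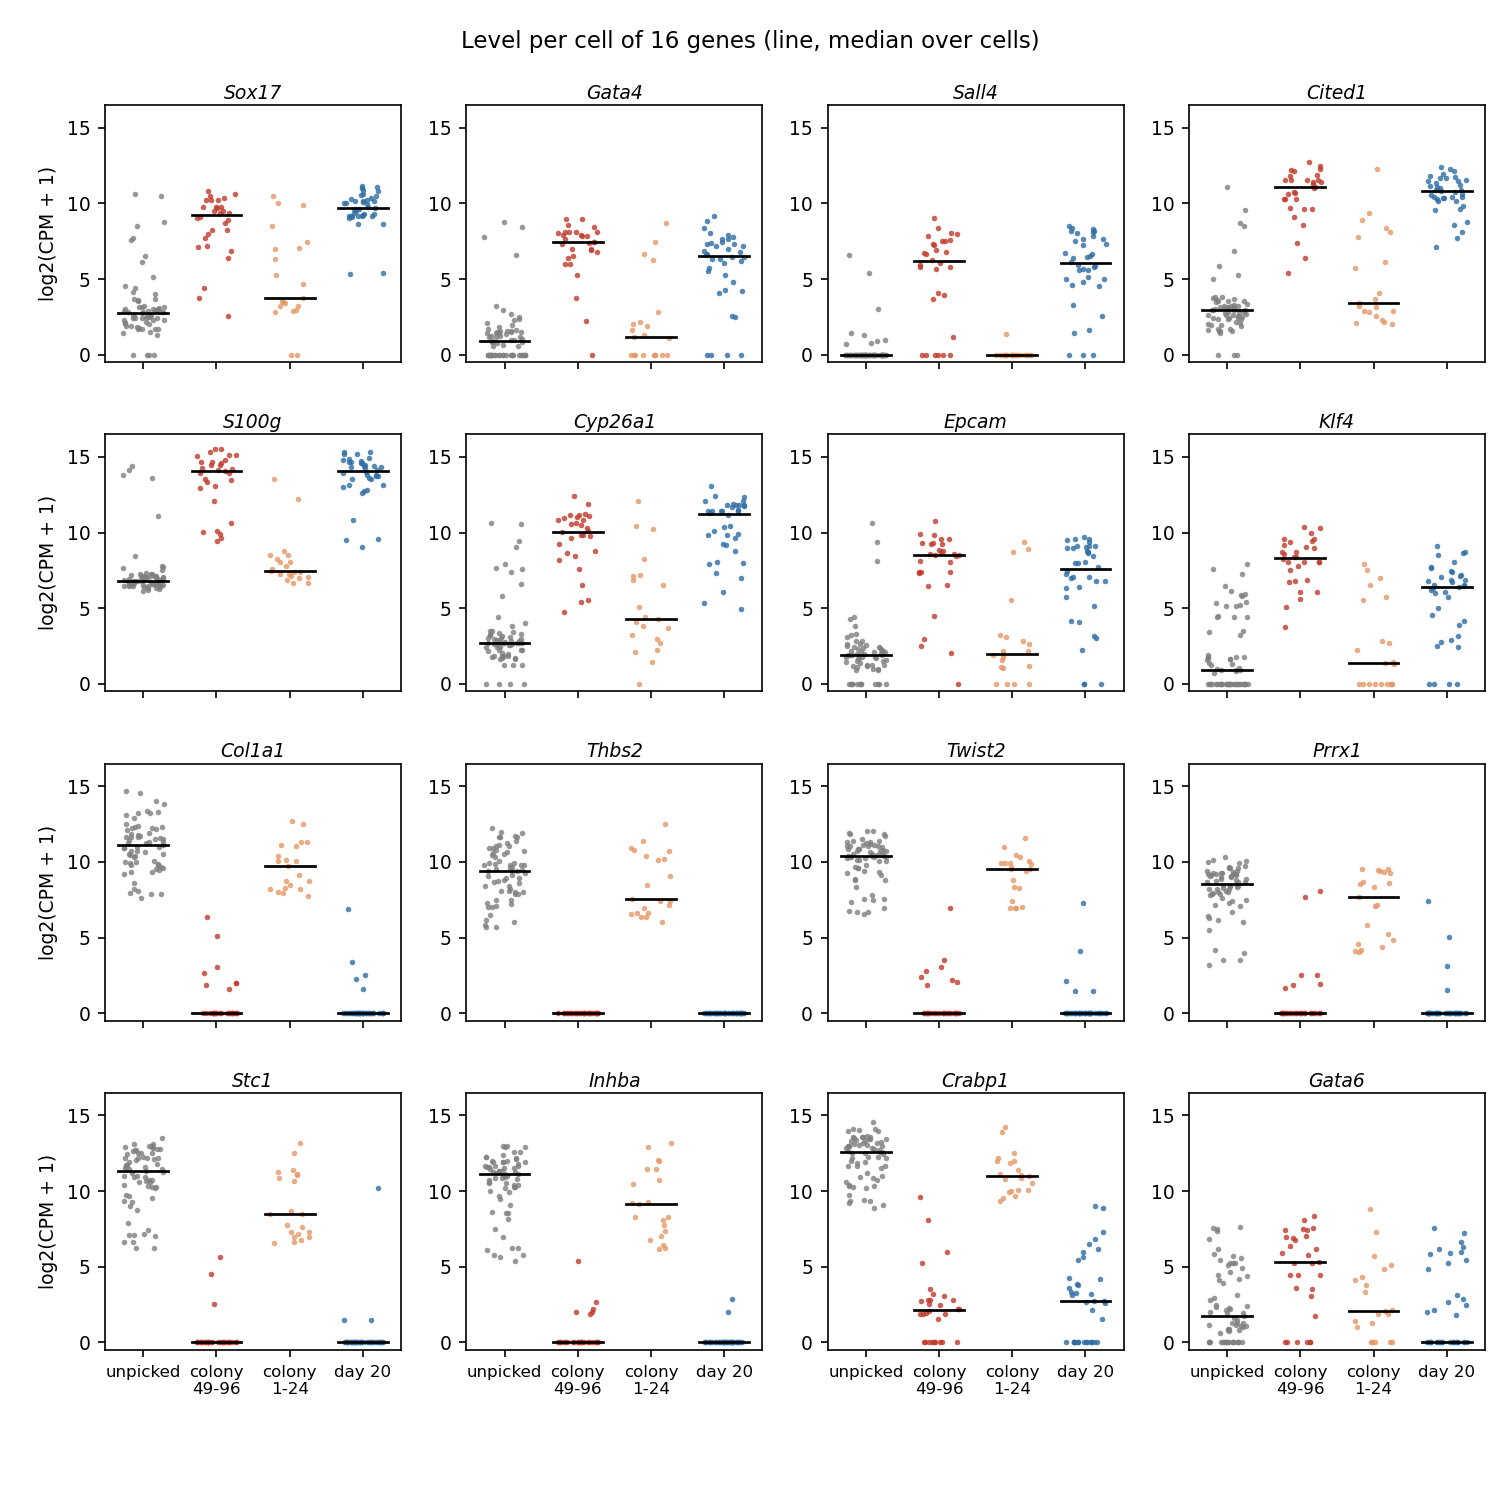
Level per cell, as log2(CPM + 1), of 16 genes in 67 unpicked cells (grey), 30 later-numbered colony cells (red), 21 early-numbered colony cells (orange) and 38 day 20 cells (blue), with 1 point per cell and a line at the median. *Thbs2* was at 0 in all red and blue points, *Sox17* and *S100g* show a few grey points at colony level, and *Gata6* overlaps most between groups.

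Epithelial genes formed the next group. Of 30 junction and keratin genes, 13 were higher and none lower in colony cells, a share of 43.3% beside 5.61% of all genes, with a median of 1.60 over the members. *Epcam*, an epithelial adhesion molecule, had 0, 364 and 1764 CPM in colony cells and 0, 2.69 and 1557 CPM in unpicked cells (difference 5.53, SD 2.60 and 1.93). *Krt8*, a keratin of simple epithelia, had 36, 959 and 2652 CPM against 21.3, 38.6 and 4271 CPM (3.83), and *Krt18*, its partner, 9.48, 435.9 and 1992 against 11.7, 24.7 and 3315 CPM (3.14). *Cdh1*, E-cadherin, had a UMI in 24 of 30 and 42 of 67 cells (2.91, under 2 in 4 alternatives). *Spint2*, an inhibitor of epithelial serine proteases, and *Lad1*, a protein of basement membrane anchoring, differed by 4.11 and 3.68. Not all members of the list were higher. *Cldn4*, a tight junction claudin, differed by -0.39, with a median of 1.19 against 4.55 CPM, and *Dsc2*, a desmosomal cadherin, by 0.78. The summed list was 231, 3819.7 and 8780.3 CPM in colony cells and 86.1, 177 and 16652 CPM in unpicked cells, whose highest cell thus lay above all colony cells.

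Yolk sac function and basement membrane genes divided. Of 22 carriers and endocytic receptors, 2 were higher and 2 lower. No UMI was found for 12 of them in any colony cell and for 6 in any unpicked cell, the deeper group. Among the 12 was *Afp*, alpha-fetoprotein, a product of visceral endoderm, at 0 of 30 cells (up to 10.0% allowed) against 9 of 67 unpicked cells. The higher members were *Tdh*, which is an enzyme rather than a carrier, and *Apoe*, a lipid carrier, whose difference of 2.39 was under 2 in 5 alternatives. *Rbp4*, the retinol carrier of plasma, was lower by 6.95 on the log2 scale, with 0, 0 and 112 CPM in colony cells and 14.3, 284 and 3197 CPM in unpicked cells. *Trf*, transferrin, had no UMI in colony cells and 0, 3.48 and 3210.0 CPM in unpicked cells (-2.95, between -2 and 0 in 3 alternatives). *Dab2*, an adaptor of endocytosis and one of the XEN markers, differed by -0.70, with a UMI in 13 of 30 colony and 50 of 67 unpicked cells. In all, 18 of the 22 members, *Dab2* among them, were neither higher nor lower. Only 7 of the 22 reached a mean of 1 in either group, and the rest were too low to be called. Of all genes that reached it, 5.61% were higher and 14.2% lower.

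In the basement membrane list of 24 genes, 17 reached a mean of 1 in either group, and 2 were higher and 7 lower. Of all genes that reached it, 5.61% were higher and 14.2% lower. The higher ones encode chains of collagen IV and laminin that line the parietal yolk sac: *Col4a1* had 0, 355 and 1306 CPM against 0, 33.9 and 698 CPM (difference 2.67, under 2 in 2 alternatives), and *Lama1* 0, 14.1 and 138 against 0, 1.22 and 288 CPM (2.28, under 2 in 8). *Col18a1*, the collagen that gives endostatin, was lower, at -6.31, as were *Nid1* (nidogen, -4.42), *Lama4* (a laminin chain of mesenchyme and vessels, -3.59) and *Hspg2* (perlecan, -3.27). *Lamc1*, the laminin gamma chain that pairs with both alpha chains, differed by -0.17. The median difference over the list was -0.07.

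Fibroblast matrix genes were lower in colony cells nearly throughout. Of 38 fibrillar collagen and matrix genes, 30 (78.9%, beside 14.2% of all genes) were lower and none higher, with a median difference of -4.90, and 29 were lower in all 6 pairs of number ranges described below, beside 8.93% of all genes. *Col1a1*, a chain of collagen I (chr11:94797538-94814356, plus strand), had 0, 0 and 82.1 CPM in colony cells and 196, 2173 and 26278 CPM in unpicked cells. Its difference was -10.20 (SD 1.63 and 1.65), its mean CPM was 832-fold lower, and 8 of 30 colony cells had a UMI. *Col3a1*, collagen III, had 0, 0 and 20.5 against 70.9, 901 and 9552 CPM (-9.26), and *Col1a2* differed by -8.23. *Thbs2*, a matricellular thrombospondin, had no UMI in the 30 colony cells, which allows a share of up to 10.0%, and 50.5, 686 and 4839.7 CPM in unpicked cells. It was at least 2883-fold lower, against the floor of 3 UMIs over all colony cells. *Dcn*, the collagen-binding proteoglycan decorin, overlapped between groups, with 0, 2.83 and 1766 against 61.2, 1874 and 9527 CPM (-8.11). *Lum*, the proteoglycan lumican, had 0, 0 and 11.1 against 54.5, 256.8 and 4376 CPM (-7.36), and *Col6a1*, a collagen VI chain, 0, 0 and 5.17 against 22, 176.7 and 1635 CPM (-7.30). *Tnc*, tenascin C, *Col12a1*, a fibril-associated collagen, and *Thbs1* differed by -8.30, -8.07 and -7.97. The list also held genes at like levels in both groups. *Loxl2*, a lysyl oxidase that crosslinks collagen, had 80.6, 294 and 2505 CPM in colony cells and 74.0, 479.8 and 1699 CPM in unpicked cells (-0.52), and *Fn1*, fibronectin, a median of 66.5 against 58.4 CPM (-0.76).

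No gene had every colony cell above every unpicked cell (0%), and 25 (0.259%) had every colony cell below every unpicked cell. These 25 genes included 6 genes of the matrix list, among them *Col1a1*, *Col3a1*, *Thbs2*, *Lum* and *Col6a1*, and 14 of them had no UMI in any colony cell. *Stc1*, stanniocalcin, a secreted glycoprotein that responds to cAMP in many cells (chr14:69647295-69659861, plus strand), had the largest difference of all genes, -10.40 (SD 1.35 and 1.98). Its level was 0, 0 and 48.1 CPM in colony cells and 75.7, 2524 and 11609.7 CPM in unpicked cells, and its mean CPM was 1324-fold lower. *Il1rl1*, the receptor for interleukin-33, had 0, 0 and 2.62 against 6.61, 193 and 3200.5 CPM, and *Cxcl14*, a chemokine, 0, 0 and 9.61 against 19.9, 83.1 and 5185 CPM. The count depended on depth and on single cells. After thinning it was 5 (*Col1a1*, *Col3a1*, *Crabp1*, *Stc1* and *Thbs2*), and without the 7 cells that stood apart it was 60, of which 58 were lower. The latter count follows in part from choosing those cells by their marker sums.

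Mesenchymal transcription factors were lower or similar. Of 32, 12 were lower (37.5%, beside 14.2% of all genes) and none higher, with a median difference of -0.93. *Twist2*, a basic helix-loop-helix factor of the dermis, had 0, 0 and 124 CPM in colony cells and 92.5, 1349 and 4179 CPM in unpicked cells (-9.20, SD 1.61 and 1.47), and its mean CPM was 280.0-fold lower. *Prrx1*, a homeobox factor of limb and mesenchyme, had 0, 0 and 267 against 8.07, 370.4 and 1274 CPM (-7.27), with a UMI in 7 of 30 colony cells and all 67 unpicked cells. *Aebp1*, a secreted protein first described as a repressor of transcription, and *Twist1* differed by -7.34 and -5.71. Of the factors that drive the epithelial to mesenchymal transition, *Snai1* had 0, 0 and 199 against 3.23, 74.6 and 851 CPM (-3.96), *Zeb2* and *Snai2* differed by -3.18 and -2.90, and *Zeb1* had no UMI in colony cells and one in 44 of 67 unpicked cells (-2.27, between -2 and 0 in 5 alternatives). *Osr1*, a zinc finger factor named by the study as a MEF master gene, was low on day 12 in both groups. Its median was 0 in each, with a UMI in 2 of 30 colony and 33 of 67 unpicked cells, while its median at day 0 was 50.7 CPM. Its difference of -1.24 passed -2 in 2 alternatives.

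Contractile genes, many of them targets of the serum response factor SRF, were lower in 14 of 20 cases (70%, beside 14.2% of all genes), and none was higher (median -3.28). *Cnn1*, calponin, and *Tagln*, transgelin, which bind actin in smooth muscle, had no UMI in any colony cell and medians of 24.6 and 38.2 CPM in unpicked cells. *Acta2*, smooth muscle actin, had a UMI in 8 of 30 colony cells and 66 of 67 unpicked cells (-4.00). *Tpm2*, a tropomyosin, and *Flna*, the actin crosslinker filamin A, differed by -5.72 and -5.21. *Myl9*, a regulatory myosin light chain, had the higher median in colony cells, with 19, 1215 and 3348 CPM in colony cells and 32.3, 266 and 6377 CPM in unpicked cells. Its difference of 0.98 passed 2 in 1 alternative. The summed list was 1209, 2629 and 6339.7 CPM in colony cells and 2689, 10739 and 33342 CPM in unpicked cells.

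Retinoid genes are of interest because AM580 was present in both groups. Of 19 genes that respond to retinoic acid or handle it (median -2.22), 16 reached a mean of 1 in either group, and 1 was higher and 10 lower. Of all genes that reached it, 5.61% were higher and 14.2% lower. The higher one was *Cyp26a1*, the enzyme that breaks down retinoic acid, with 26.4, 1062 and 5566 CPM in colony cells and 0, 5.55 and 1606 CPM in unpicked cells (6.28, SD 1.94 and 2.36, ratio of mean CPM 16). *Crabp1*, a cytoplasmic protein that binds retinoic acid, had 0, 3.39 and 780.4 CPM in colony cells and 464, 6239 and 23747 CPM in unpicked cells (-9.84, SD 2.36 and 1.47), and its mean CPM was 169-fold lower. *Crabp2*, its relative that carries retinoic acid to the receptor, differed by -4.63, and *Stra6*, the receptor for retinol-binding protein, by -0.51. *Cyp26b1*, a relative of *Cyp26a1*, had 0, 0 and 429.7 CPM in colony cells and 3.48, 46.8 and 589 CPM in unpicked cells (-4.00), and *Rarb*, a receptor gene that is itself a target of retinoic acid, had a UMI in 4 of 30 and 62 of 67 cells (-3.77). *Cyp26a1* and *Crabp1* thus differed in opposite directions between cells that had received the same agonist.

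The 200 bases before the annotated starts of these genes are given because both take part in the same pathway and the promoter of *Cyp26a1* is known for its retinoic acid response element. Capitals mark the letters AGGTCA or AGTTCA, half-sites of retinoic acid receptors, searched on both strands and without overlap with another motif, and both sequences are from NCBIM37 (mm9) on the plus strand, at chr19:37772098-37772297 for *Cyp26a1* and chr9:54612355-54612554 for *Crabp1*.
Cyp26a1: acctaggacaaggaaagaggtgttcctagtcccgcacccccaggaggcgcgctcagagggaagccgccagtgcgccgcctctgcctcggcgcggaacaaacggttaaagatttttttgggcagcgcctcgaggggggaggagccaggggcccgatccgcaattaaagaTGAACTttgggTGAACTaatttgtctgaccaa
Crabp1: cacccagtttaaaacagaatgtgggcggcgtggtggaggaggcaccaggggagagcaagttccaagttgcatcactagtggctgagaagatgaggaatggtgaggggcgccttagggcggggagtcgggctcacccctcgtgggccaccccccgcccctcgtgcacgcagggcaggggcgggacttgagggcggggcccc

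In the *Cyp26a1* window the half-site AGTTCA was found 2 times on the reverse strand, as TGAACT, with 5 bases between the copies, and in the *Crabp1* window neither half-site was found. At least 1 half-site was present in the window of 13.5% of 8720 genes whose mean reached 1 in either group, 15.3% of 490 higher genes and 13.5% of 1255 lower genes with a window, and of 18.9% of all 33579 annotated genes. A direct repeat with 5 bases between was present in 6 of the 33579 windows, in 1 of the 490 and in 0 of the 1255. These matches are letters in a window and not measured binding sites.

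Genes linked to the other agents of the cocktail were lower to different extents. Of 20 cAMP and CREB targets, 10 were lower (50%, beside 14.2% of all genes) and none higher (median -2.07), among them *Stc1*, *Areg*, an EGF receptor ligand (0, 0 and 1027 against 13.2, 267 and 11303 CPM, -7.46), *Gem*, a small GTPase (-4.42), and *Pde4b*, a cAMP phosphodiesterase (-3.85). *Fos*, an immediate early factor, was detected in 26 of 30 colony cells and 66 of 67 unpicked cells (-1.24). Of 27 TGF-beta pathway genes, 12 (44.4%) were lower and none higher (median -1.45). *Inhba*, the activin subunit, had 0, 0 and 41.1 CPM in colony cells and 40.4, 2209 and 8093 CPM in unpicked cells, so the groups overlapped at the edge only (-9.93, SD 1.23 and 2.02), and its mean CPM was 1299-fold lower. *Inhbb*, the other activin beta subunit, *Fstl1*, a secreted glycoprotein, and *Ltbp1*, which holds latent TGF-beta in the matrix, differed by -6.82, -7.93 and -5.61. *Tgfbr2*, the receptor that partners ALK5, had 0, 0 and 105 against 2.02, 67.8 and 528 CPM (-4.50), and *Smad3*, which carries the signal to the nucleus, had a UMI in 3 of 30 and 66 of 67 cells (-4.75). *Skil*, a repressor of Smad activity, differed by 0.22.

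Among 27 BMP pathway genes, 1 was higher (3.70%, beside 5.61% of all genes) and 7 lower (25.9%, beside 14.2%). The higher one was *Bambi*, a pseudoreceptor that dampens BMP and TGF-beta signals, with a UMI in 22 of 30 colony cells and 38 of 67 unpicked cells (2.84, under 2 in 3 alternatives). *Bmp1*, a procollagen protease, *Bmp7*, a BMP ligand, and *Nbl1*, a BMP antagonist, were lower, at -4.96, -4.37 and -3.90. Of 18 Wnt target genes, 1 was higher and 4 lower. *Sp5*, a zinc finger target of Wnt, was higher by 2.28 (0, 31.3 and 332 against 0, 1.41 and 243 CPM, under 2 in 6 alternatives), while *Myc*, a growth factor response gene, was lower by 4.58 on the log2 scale. The other lower ones were *Wif1* and *Kremen1*, inhibitors of Wnt signalling, at -3.23 (between -2 and 0 in 3 alternatives) and -3.15, and *Tnfrsf19*, a TNF receptor family member, at -2.08, which was between -2 and 0 in 8 alternatives. *Rnf43* and *Znrf3*, ligases that remove Wnt receptors, differed by 0.15 and -0.17. Of 24 Wnt ligands and antagonists, 4 were lower and none higher, namely *Wnt5a* (-4.43), *Wnt2* (-3.73), *Sfrp1* (-3.70) and *Dkk3* (-2.52). Only 15 of the Wnt targets and 11 of the ligands and antagonists reached a mean of 1 in either group. Of all genes that reached it, 5.61% were higher and 14.2% lower. The summed ligand and antagonist list had medians of 250 CPM in colony cells and 1117 CPM in unpicked cells. For the summed target list the medians were 813 and 1059 CPM.

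Of 39 growth factor receptors and ligands, 25 reached a mean of 1 in either group, and 3 of these were higher and 12 lower. Of all genes that reached it, 5.61% were higher and 14.2% lower. *Flt1*, a receptor for VEGF that is also made in extraembryonic tissue, had 0, 136 and 299.7 CPM in colony cells and 0, 0 and 189 CPM in unpicked cells (4.75). *Ihh*, Indian hedgehog, a signal of visceral endoderm, had a UMI in 24 of 30 against 18 of 67 cells (3.58), and *Pdgfa*, a ligand of the PDGF receptor that primitive endoderm carries, in 21 of 30 against 33 of 67 (2.57, under 2 in 3 alternatives). *Ereg*, an EGF family ligand, had 0, 0 and 61.6 against 28, 834 and 5719.7 CPM (-8.62), and *Igf1*, insulin-like growth factor, *Fgfr1*, an FGF receptor, and *Fgf7*, a fibroblast-made ligand for epithelia, differed by -6.69, -5.10 and -4.85. *Pdgfrb*, a PDGF receptor of mesenchyme, had a UMI in 1 of 30 and 58 of 67 cells (-3.35). *Igf2*, the imprinted growth factor, had 41.3, 396 and 5954 CPM in colony cells and 10.3, 351 and 5046 CPM in unpicked cells (0.21).

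Of 31 chemokines and cytokines, 17 were lower in colony cells (54.8%, beside 14.2% of all genes) and none higher (median -2.35), and 13 had no UMI in any colony cell. The summed list was 0, 92.3 and 2644 CPM in colony cells against 579, 4152 and 20760.0 CPM in unpicked cells. *Ccl7*, a monocyte chemokine, had 0, 0 and 606 against 48.4, 169 and 5097 CPM (-7.55), and *Cxcl2*, a neutrophil chemokine, had no UMI in colony cells and a median of 50.6 CPM in unpicked cells. Of 26 interferon response and MHC class I genes, 17 reached a mean of 1 in either group, and 1 of these was higher and 3 lower. Across all 9648 genes that reached it, 5.61% were higher and 14.2% lower. *Ifitm1*, a membrane protein also known from primordial germ cells, was higher (0, 528 and 5120.5 against 8.67, 52.1 and 2297 CPM, 2.56, under 2 in 3 alternatives). The antiviral *Bst2*, the immunoproteasome subunit *Psmb8* and the ubiquitin-like *Isg15* were lower, at -3.35, -3.28 and -2.74, the last between -2 and 0 in 3 alternatives. *B2m*, the light chain of MHC class I, was at like levels, with medians of 857 and 801 CPM.

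**Figure D3:**
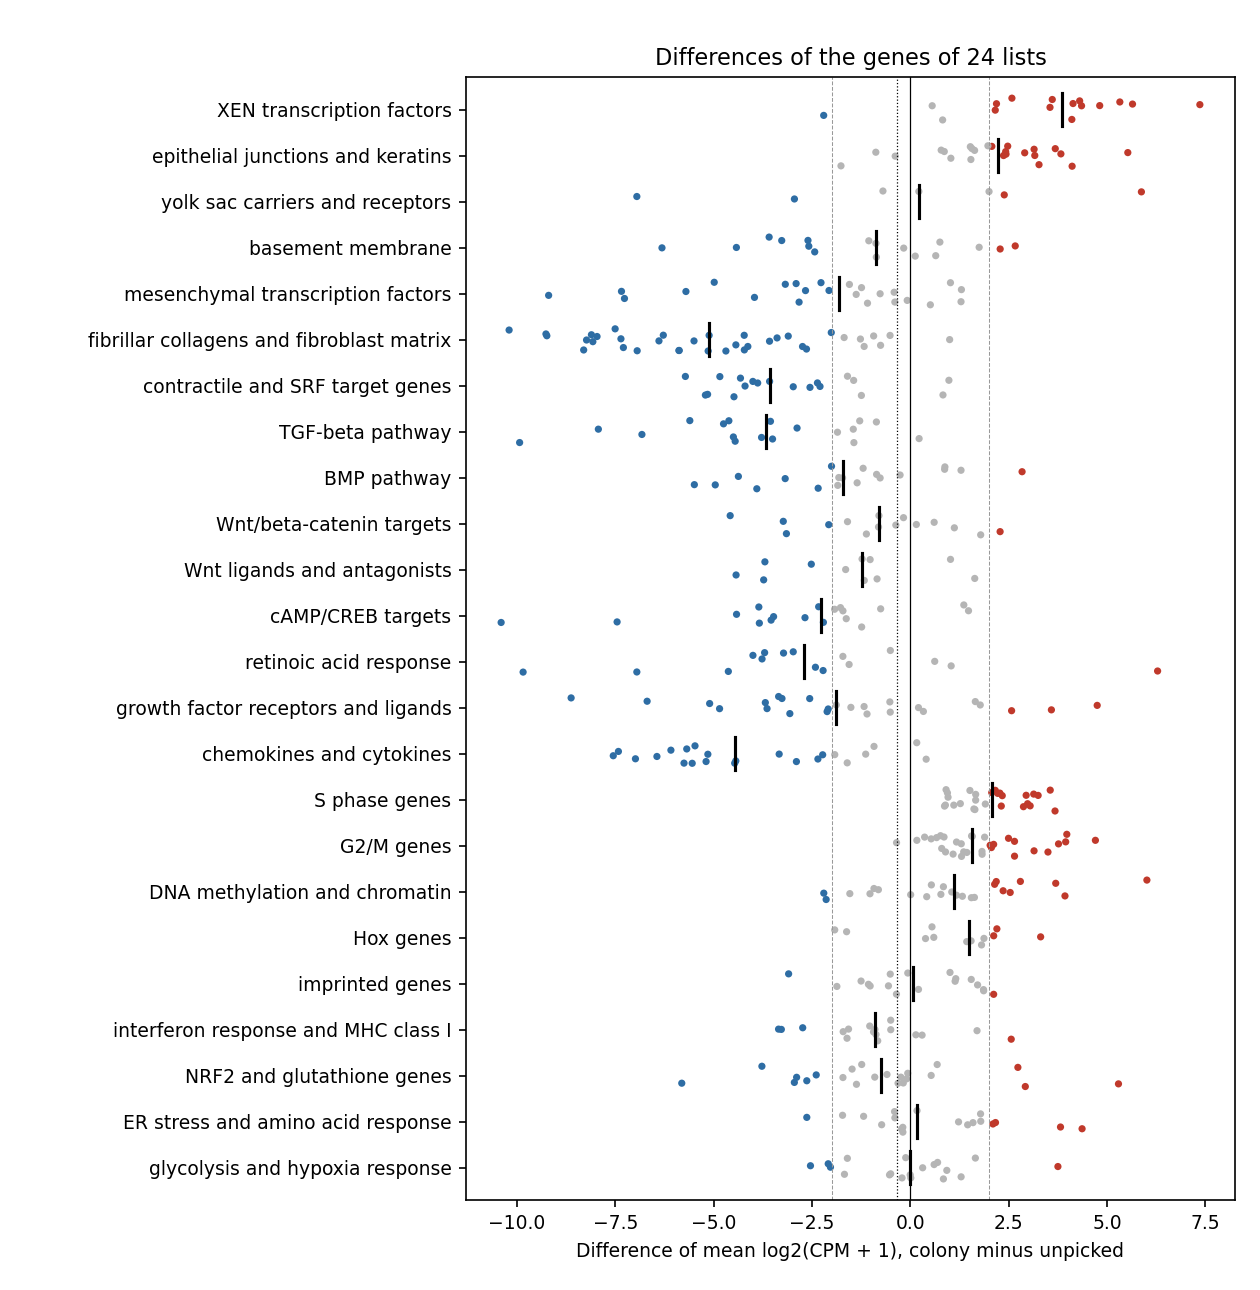
Differences (colony minus unpicked, log2 units) of the genes of 24 lists whose mean reached 1 in either group, with 1 point per gene, a bar at the median, dashed lines at -2 and 2 and a dotted line at the median of all genes, -0.34. Collagen, contractile, TGF-beta, cAMP and chemokine genes extend to the left and XEN, epithelial and cell cycle genes to the right.

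Many cell cycle genes were higher in colony cells. Of 27 S phase genes, 14 were higher (51.9%, beside 5.61% of all genes) and none lower (median 2.07), and of 32 G2/M genes, 12 were higher (37.5%) and none lower (median 1.56). The summed S phase list was 249.6, 1936 and 5698 CPM in colony cells and 68.6, 356 and 6865 CPM in unpicked cells, and 28 of 30 colony cells lay above the unpicked median. The summed G2/M list was 60.0, 1873 and 7112 CPM against 40.9, 95.4 and 5569 CPM, and 10 of 67 unpicked cells exceeded the colony median. Thinned cells had medians of 2120 and 380 CPM for the S phase and of 2210 and 120 CPM for the G2/M list. *Cenpa*, the histone H3 variant of centromeres, had 6, 275 and 872 CPM in colony cells and 0, 1.87 and 643 CPM in unpicked cells (4.70), and *Ccnb1* and *Ccnb2*, the mitotic cyclins B, differed by 3.95 and 3.77. *Chaf1b*, a chromatin assembly subunit, *Mcm5*, a subunit of the replicative helicase, and *Ccne1*, cyclin E, differed by 3.68, 3.56 and 3.14, the last 2 being under 2 in 1 alternative each. *Pcna*, the replication clamp, had 56.9, 362 and 1526 CPM against 4.57, 76.3 and 1039 CPM (2.16), and *Top2a*, a topoisomerase, medians of 33.1 and 1.41 CPM (2.12), and both were under 2 in at least 6 alternatives. *Cenpf*, a kinetochore protein, did not follow, with medians of 33 and 21 CPM and a difference of -0.35. No phase was assigned to single cells.

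Cell cycle inhibitors and p53 targets divided, with 2 of 17 higher and 2 lower (11.8% each, beside 5.61% and 14.2% of all genes). *Cdkn2b*, the inhibitor p15 that TGF-beta induces, had 0, 0 and 111 CPM in colony cells and 0, 79.7 and 634 CPM in unpicked cells (-4.39). *Cdkn1a*, the inhibitor p21, had 0, 558 and 10843 CPM against 29.6, 2289.8 and 6516 CPM, a difference of -2.52 (SD 2.93 and 1.33) that was between -2 and 0 in 3 alternatives. Its highest cell was colony cell 67, which had 48695 UMIs and stood apart in its marker sums. *Sesn2*, a stress-induced regulator of mTOR, and *Cdkn1b*, the inhibitor p27, were higher by 4.36 and 2.19, the latter under 2 in 8 alternatives. *Mdm2* and *Phlda3*, direct p53 targets, differed by -0.02 and 0.22.

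Of 25 DNA methylation and chromatin genes, 8 were higher (32%, beside 5.61% of all genes) and 2 lower (8%, beside 14.2%), with a median of 1.05. The high mobility group genes led this list. *Hmgb2*, a chromatin protein of dividing cells, had 82.1, 1128 and 3336 CPM in colony cells and 0, 6.64 and 1847 CPM in unpicked cells (6.01, SD 1.36 and 2.55), while its median at day 0 was 478 CPM. *Hmgn2*, a nucleosome-binding protein with many processed copies in the genome that can share reads, had 82.7, 1882 and 4677 CPM against 12.8, 72.5 and 3231 CPM (3.93), and *Hmgb3* and *Ezh2*, the enzyme of Polycomb complex PRC2, differed by 3.69 and 2.80. *Hmgn3* and *Tet2*, an enzyme of DNA demethylation, were lower, at -2.20 and -2.14, each between -2 and 0 in at least 6 alternatives. *Dnmt3a*, a DNA methyltransferase, differed by 0.01.

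**Figure D4:**
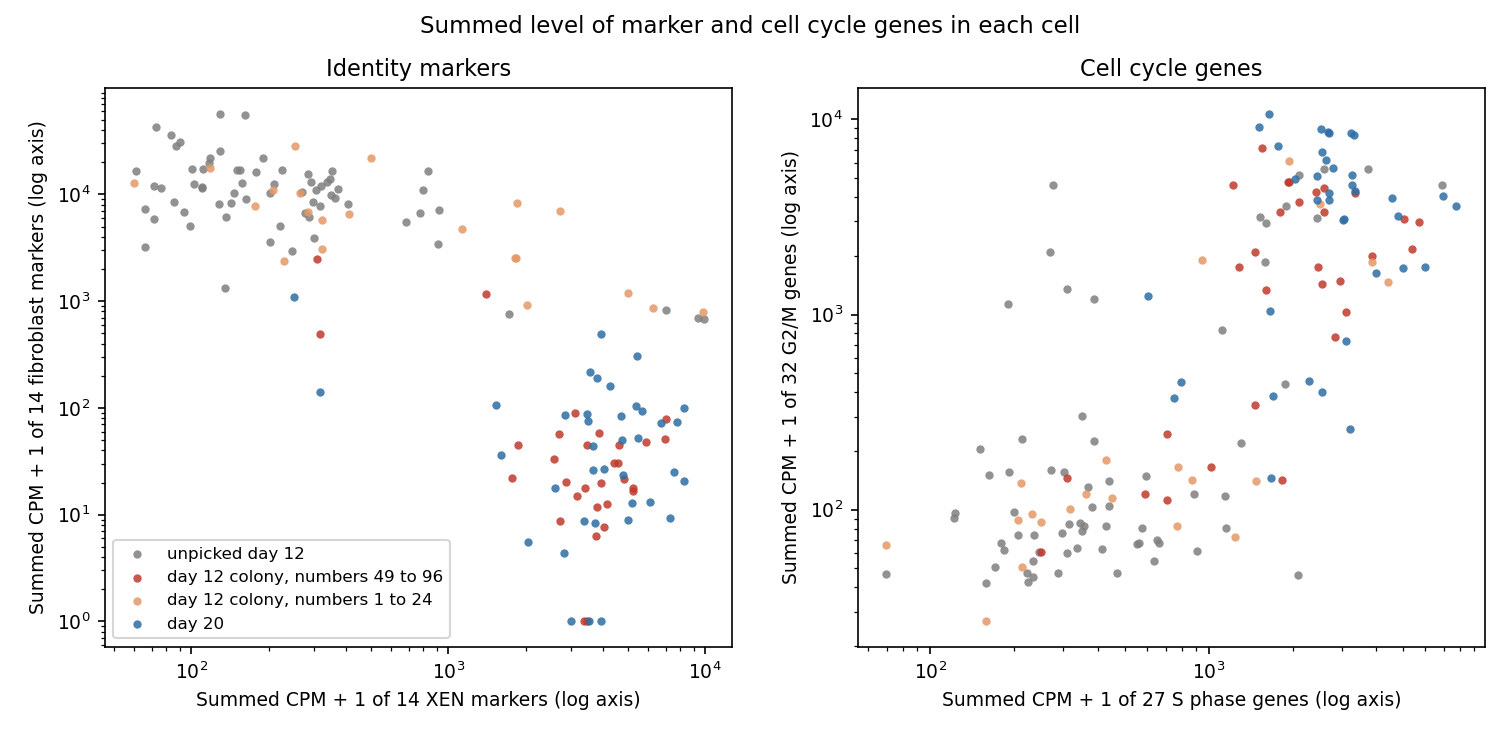
Summed CPM + 1 per cell, on log axes, of 14 XEN against 14 fibroblast markers (left) and of 27 S phase against 32 G2/M genes (right), with 1 point per cell of the 4 groups. Most red colony cells lie with the blue day 20 cells at low fibroblast and high XEN sums, 3 red cells have fibroblast sums of 487 CPM or more, and 4 grey unpicked cells have XEN sums of 1715 CPM or more.

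Hox genes, which pattern the body axis and are kept active by Dot1L-linked marks in some cells, were mostly low in both groups. Of 39, 12 reached a mean of 1 in either group, and 3 of these were higher (beside 5.61% of all genes that reached it) and none lower. The summed list was 10.8, 286 and 1478 CPM in colony cells and 0, 81.3 and 424 CPM in unpicked cells. In 12 of 30 colony cells the sum lay above that of the highest unpicked cell. *Hoxa7* had a UMI in 18 of 30 colony cells and 4 of 67 unpicked cells (3.31), *Hoxa9* in 12 and 9 (2.12), and *Hoxb7* in 17 and 21 (2.20). *Hoxa7* was under 2 in 1 alternative, *Hoxa9* in 8 and *Hoxb7* in 9. Of 24 genes linked to pluripotency, 7 reached a mean of 1 in either group, and 2 of these were higher (beside 5.61% of all genes) and none lower. The higher ones were *Klf4* and *Lin28a*, an RNA-binding protein that blocks let-7 maturation, with a UMI in 14 of 30 colony cells and 1 of 67 unpicked cells (2.49, under 2 in 6 alternatives). *Pou5f1* had no UMI in either group, and *Nanog*, a homeobox gene with related copies in the genome that can share reads, had medians of 8.68 and 3.83 CPM (0.56). Of 23 imprinted genes, *Meg3*, a maternally expressed long RNA, was higher (3.16, 339 and 1687 against 0, 99.8 and 652 CPM, 2.12, under 2 in 7 alternatives), and *Ndn*, necdin, was lower (-3.10). Each made up 4.35% of the list, beside 5.61% of all genes higher and 14.2% lower.

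Stress and metabolic genes held large differences in both directions. In the ER stress and amino acid list of 20 (median 0.06), 19 reached a mean of 1 in either group, and 4 were higher and 1 lower. Of all genes that reached it, 5.61% were higher and 14.2% lower. *Sesn2* and *Atf3*, a stress-induced factor (0, 50.5 and 708 against 0, 0 and 177 CPM, 3.82), were higher, as were *Phgdh*, the first enzyme of serine synthesis, and *Asns*, asparagine synthetase, at 2.16 and 2.10, which were under 2 in 8 and 9 alternatives. *Slc7a11*, the cystine carrier, was lower (-2.63, between -2 and 0 in 3 alternatives). Of 22 glycolysis and hypoxia genes, 19 reached that mean, and 1 was higher and 3 lower. The glucose carriers differed in direction: *Slc2a3* had 0, 138 and 663 CPM in colony cells and 0, 3.52 and 1298 CPM in unpicked cells (3.75), and *Slc2a1* 0, 40.7 and 343 against 18.2, 292 and 1149 CPM (-2.54, between -2 and 0 in 3 alternatives). *Vegfa*, the ligand of *Flt1*, and *Pfkl*, a phosphofructokinase, were the other lower ones, at -2.09 and -2.03 (between -2 and 0 in 6 and 5 alternatives), and *Pkm*, pyruvate kinase, differed by 0.01.

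In the list of 24 NRF2 and glutathione genes, 3 were higher (12.5%, beside 5.61% of all genes) and 6 lower (25%, beside 14.2%). *Gpx2*, an epithelial glutathione peroxidase, had 41.1, 683 and 3113 CPM in colony cells and 0, 10.1 and 1906 CPM in unpicked cells (5.29). *Gclm*, a subunit of the enzyme that starts glutathione synthesis, and *Gsr*, glutathione reductase, were higher by 2.92 and 2.73, under 2 in 3 and 2 alternatives. *Srxn1*, sulfiredoxin, had 0, 0 and 186 against 4.55, 182 and 1515 CPM (-5.81), and *Gstm2*, a glutathione transferase, and *Mt2*, a metallothionein, differed by -3.77 and -2.95. *Hmox1*, heme oxygenase, had 0, 133 and 2079 against 25.5, 500.0 and 2386 CPM (-2.89). *Gpx4* and *Gpx1*, the widely used peroxidases, differed by -0.07 and -0.10.

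The listed markers of other cell types were low in most cells of both groups. *Esx1*, *Flt1* and *Myl3*, described above as higher in colony cells, were not in the trophoblast, endothelial and skeletal muscle lists. None of 12 trophoblast markers was higher or lower, and *Elf5*, *Tpbpa* and *Prl3d1* had no UMI in either group. Of 10 endothelial markers 1 was lower (*Kdr*), of 11 immune markers 1 (*Cd14*), of 10 skeletal muscle markers 1 (*Acta1*), of 9 adipocyte markers 1 (*Lpl*) and of 10 neural markers 2 (*Nes* and *Ncam1*), and none was higher. The lower members made up 10%, 9.09%, 10%, 11.1% and 20% of their lists in this order. Of all genes whose mean reached 1 in either group, 14.2% were lower and 5.61% higher. The differences of *Kdr*, *Cd14* and *Acta1* were between -2 and 0 in 4 alternatives each. The median sum of the immune markers was 0 CPM in colony cells and 20 in unpicked cells, with highest cells at 75.8 and 521 CPM, and *Ptprc* was at 0 in both. Endothelial markers had median sums of 0 and 5.21 CPM, from 0 to 191 and from 0 to 339, and *Emcn* and *Erg* were at 0 in both. Trophoblast, muscle, adipocyte and neural sums reached at most 288, 246, 82.1 and 391 CPM in colony cells and 1572, 823, 1288 and 657 CPM in unpicked cells. In the list of 9 RNA quality and stress markers none was past 2. *Malat1*, a nuclear RNA, had 2856, 7504 and 49101 CPM in colony cells and 9619.9, 30709 and 75509.6 CPM in unpicked cells (-1.86), a difference that was past -2 in 4 alternatives. Its part in the differences of other genes was not tested.

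Colony cells came from the number ranges 49 to 72 and 73 to 96, with 15 kept cells in each, and unpicked cells from 1 to 24, 25 to 48 and 49 to 72, with 21, 24 and 22. Whether these ranges stand for plates or libraries is not stated. In all 6 pairs of a colony and an unpicked range, 264 genes (2.74%) were higher by over 2 and 862 (8.93%) lower. Cells numbered 49 to 72 exist in both groups. Within these numbers, 627 genes were higher and 1432 lower, and 450 and 1168 of them were the same genes as in the whole comparison. *Cited1* had a mean log2(CPM + 1) of 10.55 in each colony range and 3.80, 3.14 and 2.67 in the unpicked ranges. *Sox17* had 8.35 and 8.71 against 3.18, 3.31 and 3.12, and *Col1a1* 0.97 and 0.68 against 10.97, 10.94 and 11.16. *Gata6* was less even, with 5.08 and 4.21 against 2.92, 1.77 and 2.77, so its smallest pair difference was 1.29, and *Foxa2* had 2.32 and 4.22 against 0.52, 0.76 and 0.77.

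**Figure D5:**
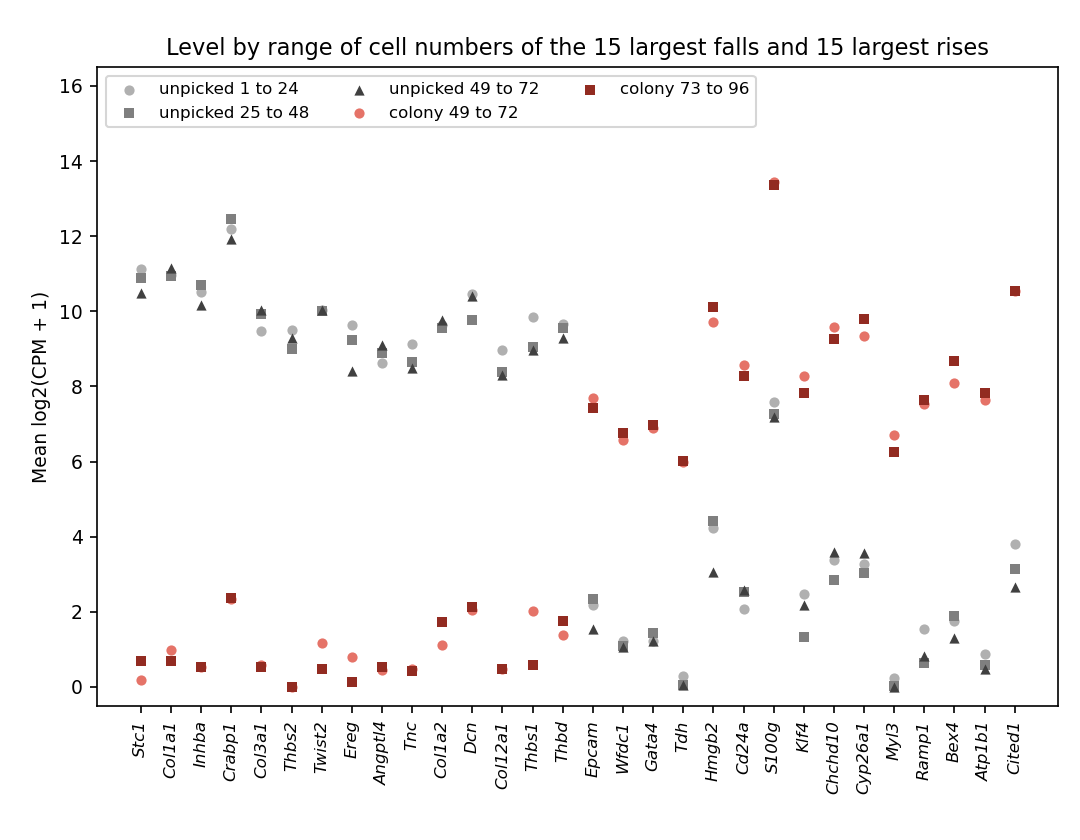
Mean log2(CPM + 1) of the 15 genes with the largest differences downwards and the 15 with the largest upwards, in 3 number ranges of unpicked cells (grey) and 2 of colony cells (red). For each of these 30 genes the ranges of one group lie on the same side of all ranges of the other.

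The labels distinguish the colony cells with lower numbers by number only. Of 48 cells with the prefix d12c and the numbers 1 to 48, 21 were kept, all of them numbered 1 to 24, and the 24 cells numbered 25 to 48 had a median of 394.5 UMIs. Set side by side, the median *Sox17* level was 600.5 CPM in the later-numbered colony cells, 12.5 in the early-numbered ones, 5.65 in unpicked cells and 837 in the 38 kept day 20 cells. *Cited1* had medians of 2126, 9.76, 6.64 and 1763 CPM in the same order, and *Col1a1* 0, 865, 2173 and 0 CPM. *Crabp1* had 3.39, 2033, 6239 and 5.66 CPM, and *Cyp26a1* 1062, 18.5, 5.55 and 2420.4 CPM. The median XEN sum was 3610.3, 409, 189.7 and 3921 CPM in this order, and the median fibroblast sum 25.2, 6571, 10929 and 46 CPM. The medians of early-numbered colony cells thus lay nearer to those of unpicked cells and the medians of later-numbered ones nearer to those of day 20 cells in these values. *Gata6* did not follow, with medians of 38.0, 3.22, 2.29 and 0 CPM. Its median in later-numbered cells was nearer to that of unpicked cells than to that of day 20 cells. *Klf4* followed less closely, with 318, 1.65, 0.936 and 84.5 CPM. The median spike-in share was 19.4%, 10.7%, 11% and 19.3% in this order, and thus divided the groups in the same way. The median depth was 276240, 416789, 768565 and 195480 UMIs. In depth, early-numbered colony cells lay between the later-numbered and the unpicked cells, and nearer to the later-numbered ones. The part of spike-in share and depth in these differences was not tested. A number range that stands for a plate or library cannot be told apart from the state of the colony cells within it.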

How the data were processed

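The deposited table holds counts, made by the authors by splitting reads by cell barcode, alignment to the mouse mm9 transcriptome and removal of duplicates by UMI. The aligner is not given in the sources used here. It lists 808 cells and 23197 genes beside 92 ERCC spike-in rows. The latter were left out of the totals, and so were 4 rows with a repeated name. Reads of copies of a gene and of overlapping genes could not be separated.

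CPM and log2(CPM + 1) were calculated with numpy 2.4.6 and pandas 2.3.3 in Python 3.11.15, and intervals with scipy 1.17.1. Alternative scaling factors came from edgeR 4.0.16 (TMMwsp) and DESeq2 1.42.0 (poscounts) under R 4.3.3, and no tool was used for tests. The comparison was tested on simulated data. A floor of 3 counts was used for genes without UMIs. Doublets were not removed, since the cells were picked by hand.

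The members and the 35 gene lists, which share some genes, were chosen with earlier results of these data known. Genes were named by rule: the 15 largest differences in each direction, 10 master genes, per list the 4 largest and 2 smallest differences, and the 5 largest differences between the colony number ranges in each direction. Genes that make up a list's count of 5 or fewer, *Gbx2*, *Esx1*, *Afp* and further known genes of the lists were added after their values were seen. Gene positions and promoter windows were read from NCBIM37 (mm9) with the GENCODE M1 annotation. Results for some genes are not reported here.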

Additional observations from a re-analysis of the deposited data

How the results depend on the processing

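The counts of genes higher and lower by over 2 and of genes without overlap were recomputed under each alternative. The count of higher genes (541) became 187 with all deposited cells, 845 with at least 6000 detected genes per cell, 147 with a pseudocount of 10, 289 with DESeq2 size factors, 976 from the log2 of the mean CPM, 915 from medians over cells, 160 with all colony cells, 1673 with a limit of 1 and 264 in all 6 pairs of number ranges. The count of lower genes (1369) became 383 with a pseudocount of 10, 2225 with a pseudocount of 0.1, 680 with all colony cells, 3111 with a limit of 1 and 862 in all 6 pairs of number ranges. The count without overlap (25) became 2 with all deposited cells, 9 and 63 with at least 2000 and 6000 detected genes, 5 after thinning to 50000 UMIs, 49 with colony cells 73 to 96, 0 with all colony cells and 60 without the 7 cells that stood apart. Higher genes made up 28.3% of all genes past the limit, against 9.34% with all deposited cells, 39.9% with at least 6000 genes, 13.1% with DESeq2 size factors, 42.0% after thinning and 42.8% relative to the median difference. Of 239 named genes, 157 were past the limit, 84 of them in each of the 16 alternatives with gene values, and none of the 157 changed sign. The cause of these changes was not tested. The alternatives without the 7 cells, in pairs of number ranges and relative to the median were chosen after seeing the data. No paired analysis was possible because cells carry no sample name, and leaving out a replicate was likewise not possible. Genes of few UMIs are limited by depth: 3 UMIs over all colony cells are 0.364 CPM, and over all unpicked cells 0.0530 CPM.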

Other observations

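The 2 number ranges of later colony cells were also set against each other, with 15 cells in each. *Smad7*, an inhibitor of TGF-beta signals, had a mean log2(CPM + 1) of 0.00 in the lower range, 49 to 72, and 3.53 in the higher, 73 to 96, against 3.62 in unpicked cells. *Rpusd3*, a mitochondrial RNA-modifying enzyme, had 0.75 and 4.38, against 0.18 in unpicked cells, and its difference over all colony cells, 2.39, was under 2 in 5 of the alternatives. In the other direction, *Glipr2* had 5.85 and 2.15 against 4.24, *Gstt2*, a glutathione transferase, 3.01 and 0.00 against 0.78, and *Car2*, a carbonic anhydrase, 5.92 and 2.94 against 4.16. These genes were chosen for this contrast, with no replicate, and are given as values.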
